A study of Homo sapiens with 10 samples.

Results

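In the stretch of the short arm of chromosome 6 that holds the main cluster of replication-dependent histone genes and many transfer RNA genes, 302 loci without a gene symbol were measured in nuclei of HEK293 cells, a line derived from human embryonic kidney. They were taken from the authors' deposited table as loci that carry an identifier in place of a symbol, were tested, and have a region lying wholly within 26000000 to 29000000 of chromosome 6 (build hg19). The whole table holds 241080 loci, of which 174660 were tested and have no symbol. The members were divided by the length of that region, with 98 in regions of up to 500 bases (short loci) and 204 in longer regions (long loci).

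Nuclei had been separated into a chromatin pellet extract (CPE, 3 samples) and a soluble nuclear extract (SNE, 3 samples), and total RNA of each was sequenced with strand kept. HEK293 cells also gave chromatin pellets treated with DRB, an inhibitor of transcription elongation (2 samples), and mock-treated pellets (2 samples). The pellets with DRB and mock treatment are not analysed here. The table gives 1 FPKM value (fragments scaled to transcript length and library size) for CPE and 1 for SNE, so the spread between samples and the depth of each library are unknown, and a difference is judged by the authors' q-value alone.

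Histone cluster 1 holds many small, intronless genes whose mRNAs end in a stem-loop in place of a poly(A) tail, and RNA polymerase II transcribes them mainly in S phase. Interspersed with them, and in a long stretch beyond them, lies the largest set of human transfer RNA (tRNA) genes, which RNA polymerase III transcribes into short precursors that are trimmed at both ends. Butyrophilin genes, which encode membrane proteins of the immunoglobulin superfamily, and genes for zinc finger proteins with a SCAN domain share the window. RNA that stays in the chromatin pellet is commonly enriched for nascent transcripts, and RNA in the soluble extract for processed transcripts that have been released.

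Most members that passed the authors' test were higher in the chromatin pellet. At a q of at most 0.05 in the authors' deposited table, 126 of the 302 members (41.7%) passed as higher in CPE, 11 (3.64%) passed as higher in SNE and 165 passed in neither direction (not called). Over all tested loci of the table, 8.73% were higher in CPE and 4.3% in SNE, and among those with no symbol the shares were 9.45% for CPE and 0.63% for SNE. CPE over SNE had a median log2 ratio of 1.74 in the authors' deposited table over the 296 members above 0 in both groups, with the middle 50% between 0.99 and 2.51. The 174358 unnamed loci elsewhere had a median log2 ratio of 3.21. The window's unnamed loci were thus called higher in CPE more often than unnamed loci elsewhere, while their median ratio was smaller. Tested loci with a symbol in the same window lay on the other side, with 1 of 83 higher in CPE, 36 higher in SNE and a median log2 ratio of -1.31 in the authors' deposited table. These values are near those of all 18271 tested symbol loci, of which 1.83% were higher in CPE and 39.3% higher in SNE, with a median of -1.24.

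**Figure D1:**
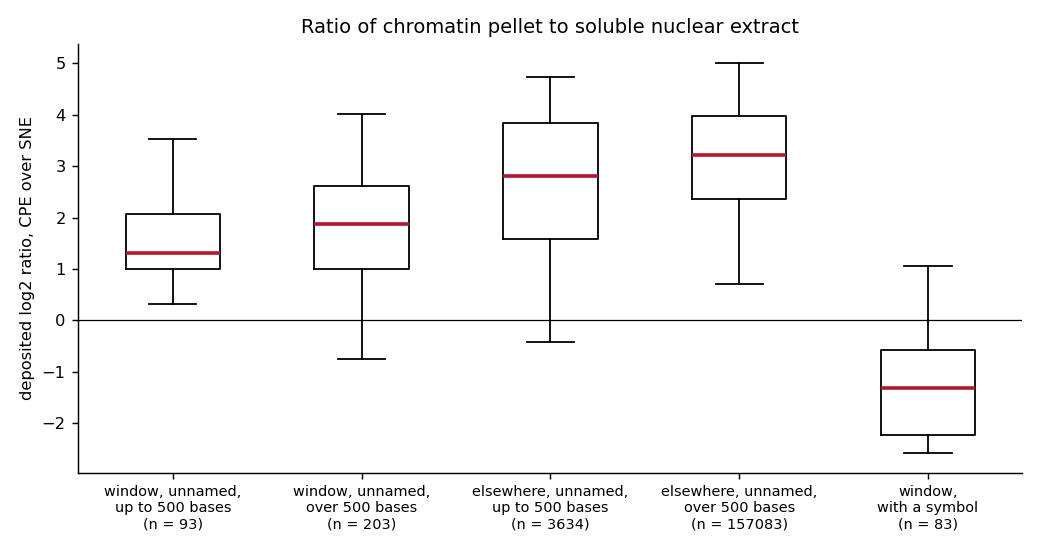
Deposited log2 ratio of CPE over SNE for unnamed loci of the window by region length, unnamed loci elsewhere and symbol loci of the window, over loci above 0 in both groups. Boxes hold the middle 50%, red lines are medians and whiskers reach the 5th and 95th percentiles. The medians of the 2 window classes, 1.31 and 1.88, lie above 0 and below those of unnamed loci elsewhere, 2.81 and 3.22, and the symbol loci of the window have a median of -1.31.

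The classes differed in level and, over all members, in the share called. Short loci had a median of 9.90 FPKM in CPE and 3.86 FPKM in SNE, against 1.11 FPKM in CPE and 0.377 FPKM in SNE for long loci. FPKM of very short features depends on how the fragment length is allowed for, and that setting is not given in the sources used here. By the authors' deposited table, 64 short loci (65.3%) were higher in CPE and 1 in SNE. Among all unnamed loci in regions of up to 500 bases, 29.6% were higher in CPE and 2.23% in SNE. Of the long loci, 62 (30.4%) were higher in CPE and 10 (4.9%) in SNE. All unnamed loci in longer regions gave 8.86% higher in CPE and 0.583% higher in SNE. The median log2 ratio in the authors' deposited table was 1.31 for short loci and 1.88 for long loci, so the class that was called more often had the smaller median ratio. Among members that were the sole locus of their region the shares were close, with 66.3% of 95 short and 62.7% of 51 long loci higher in CPE. Of the 147 long loci sharing a region with a symbol locus, 20.4% were. Smaller ratios are called more readily at higher levels. The parts that level and sharing of a region play in the shares were not tested.

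**Figure D2:**
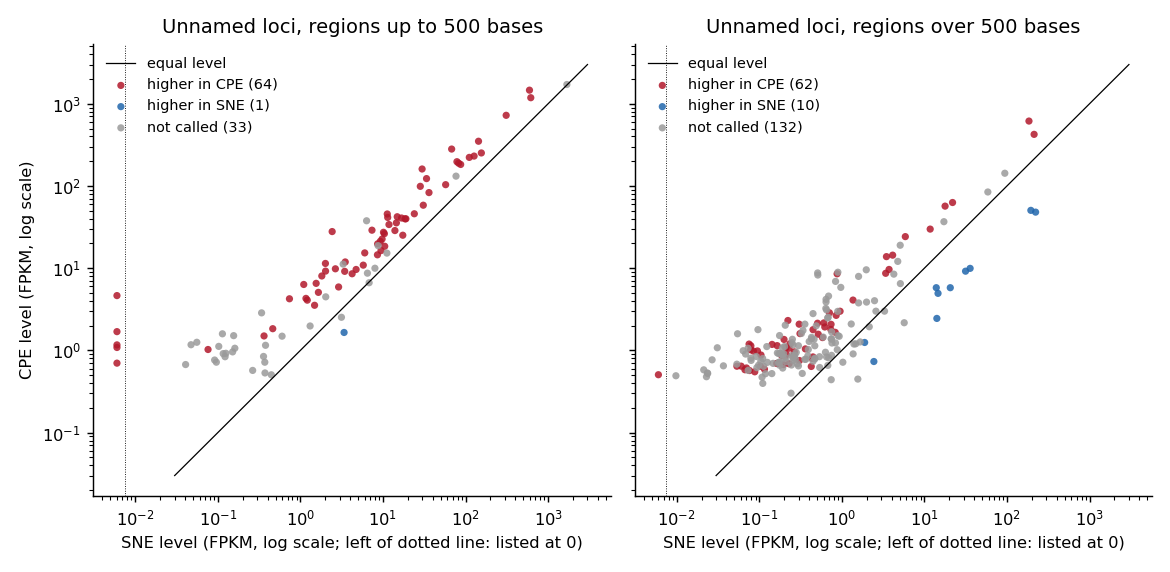
Level of each member in CPE (vertical, FPKM, log scale) against SNE (horizontal, FPKM, log scale), with short loci on the left and long loci on the right. Points above the line are higher in CPE. Most called short loci run parallel to the line up to the highest levels, and the 10 long loci called higher in SNE lie below it.

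Most short loci stood by themselves, as did 4766 of the 4873 short unnamed loci elsewhere. Of the 98, 95 were the sole locus of their region, and 63 of these were called higher in CPE, 32 were not called and 0 were higher in SNE (q of at most 0.05 in the authors' deposited table). Among the 4766 sole short loci elsewhere, 29.3% were higher in CPE and 1.41% higher in SNE. The regions of the 95 were 113 to 496 bases long with a median of 308. The nearest region holding a symbol locus lay at a median distance of 6.78 kb, and for 60 of the 95 it lay within 10 kb. The length limit cut through a continuous range. Just inside it, CLOC_141653 (496 bases) had 3.54 FPKM in CPE and 1.48 FPKM in SNE, and CLOC_141636 (499 bases) had 0.913 FPKM in CPE and 0.116 FPKM in SNE. Just outside it, CLOC_141529 (507 bases) had 0.931 FPKM in CPE and 0.166 FPKM in SNE, and CLOC_148097 (509 bases) had 1.02 FPKM in CPE and 0.392 FPKM in SNE.

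A few short loci were very abundant, ranked here by the higher of their 2 levels. The highest, CLOC_148029 at chr6:27198180-27198379, had 1715 FPKM in CPE and 1688 FPKM in SNE. It differed from the other abundant short loci in its near-equal levels, with a log2 ratio of 0.02 and a q of 0.859 in the authors' deposited table. CLOC_148060 at chr6:27758982-27759175 had 1463 FPKM in CPE and 595 FPKM in SNE, a 2.46-fold difference. CLOC_148113 at chr6:28703121-28703246 had 1184 FPKM in CPE and 617 FPKM in SNE. CLOC_148119 at chr6:28770299-28770639 had 723 FPKM in CPE and 311 FPKM in SNE. All of these apart from CLOC_148029 were called higher in CPE at the smallest q of the authors' deposited table, 0.000706, a value that 88 of the 137 called members share, so that q does not rank them. CLOC_141674 at chr6:28687529-28687704 followed with 350.0 FPKM in CPE and 144 FPKM in SNE. CLOC_141585 at chr6:26701734-26701983, with 281 FPKM in CPE and 67.9 FPKM in SNE, had the largest log2 ratio of these 6 in the authors' deposited table, 2.05. In CPE, 16 short loci exceeded 100 FPKM, and in SNE 8 did.

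The abundant short loci leaned the same way. There were 44 with a mean of the CPE and SNE levels of at least 10 FPKM, and all 44 had a positive log2 ratio in the authors' deposited table, between 0.02 and 3.52 with a median of 1.20 and an SD of 0.61 across loci. Of these, 39 (88.6%) were called higher in CPE and 0 higher in SNE. The 167 unnamed short loci elsewhere at this level were called higher in CPE in 14.4% and higher in SNE in 52.7%, with a median log2 ratio of -1.46 in the authors' deposited table. Below a mean of 1 FPKM the shares were closer, with 24% of 25 short loci of the window and 30.3% of 3803 elsewhere higher in CPE, and 0 higher in SNE in either set. Between 1 and 10 FPKM, 65.5% of 29 short loci of the window and 25.5% of 903 elsewhere were higher in CPE. The separation from short loci elsewhere was therefore seen above 1 FPKM, and its direction in the most abundant loci was opposite. The authors' test treats loci one by one, and these shares were compared as descriptions. The uniform direction holds for tested loci only. CLOC_148059 at chr6:27748398-27748890, a short unnamed locus not tested for low data, had 183 FPKM in CPE and 590 FPKM in SNE.

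**Figure D3:**
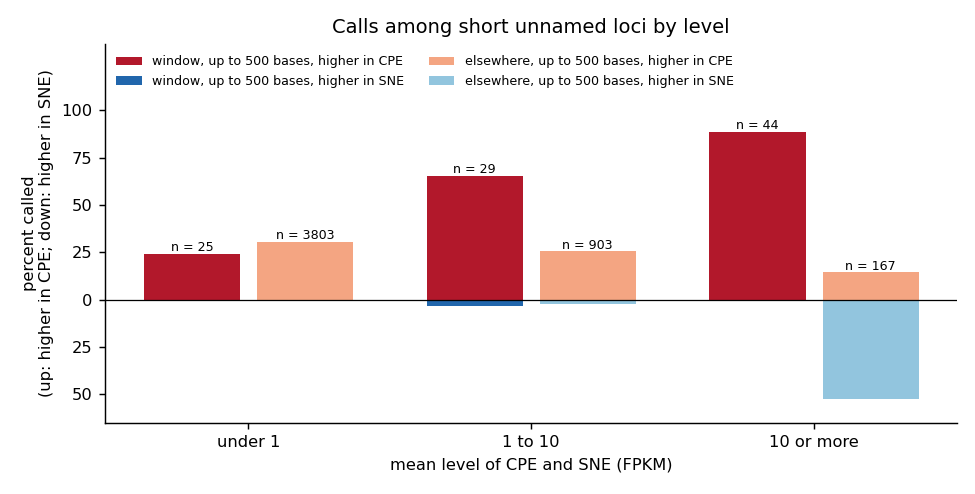
Percent of short unnamed loci called higher in CPE (upward bars) and higher in SNE (downward bars) by mean level, for the window (dark) and for the rest of the table (light). At 10 FPKM or more, 88.6% of the window's loci were higher in CPE and 0 higher in SNE, against 14.4% and 52.7% elsewhere.

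The smallest called ratios in the short class were still mostly positive. CLOC_148011 at chr6:26341534-26341869 had 25.2 FPKM in CPE and 17.4 FPKM in SNE (log2 ratio 0.53, q = 0.0147 in the authors' deposited table). CLOC_141613 at chr6:27655969-27656331 had 252 FPKM in CPE and 155 FPKM in SNE. CLOC_148117, with 14.5 FPKM in CPE and 8.58 FPKM in SNE, and CLOC_141672, with 16.4 FPKM in CPE and 9.46 FPKM in SNE, were called in the same direction. At the other end, 5 short loci (CLOC_141574, CLOC_141527, CLOC_141570, CLOC_141648 and CLOC_141573) were listed at 0 in SNE and had 0.699 to 4.64 FPKM in CPE. The long locus CLOC_148018 (601 bases) was also listed at 0 in SNE, with 0.506 FPKM in CPE. No fold is given for these 6, all of which the authors' deposited table calls higher in CPE.

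Short unnamed loci were concentrated in the window. They made up 32.5% of its unnamed tested loci, against 2.79% of those elsewhere. Of the 4971 short unnamed loci of the table, 1.97% lay in the window, but of the 211 with a mean level of at least 10 FPKM 20.9% did. Counted by megabase, the 3 megabases of the window had 11, 17 and 16 of these abundant short loci, from the lowest coordinate to the highest. These were the 3 highest counts of all megabases, and the next held 5. Short loci of any level numbered 27, 39 and 32 in the same 3 megabases, against a median of 2 over the 1525 megabases with a short locus. By that count the 3 megabases ranked 7, 3 and 5, so some megabases elsewhere held more.

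The abundant short loci followed the order of tRNA genes along the chromosome. No member carries a tRNA name in the file, and members were not placed on tRNA genes by coordinates here, so the comparison used gene order. The window was divided at 24 named genes into 23 intervals, and tRNA genes between the same named genes were counted in RefSeq (assembly GRCh38.p14, with no coordinates transferred). RefSeq lists 144 tRNA genes in these intervals out of 465 in the assembly, among them 27 for alanine, 17 for serine and 13 for isoleucine, with lengths of 71 to 108 bases. All 44 abundant short loci lay within the intervals. The 10 intervals with at least 5 tRNA genes held 39 of these 44, and 68 of the 96 short loci of any level. The 7 intervals with no tRNA gene held 0 abundant short loci, 12 short loci of any level (1 of them called higher in CPE) and 91 of the 200 long loci.

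The count of abundant short loci per interval and the count of tRNA genes had a Spearman rho of 0.92 and a Pearson r of 0.88 over the 23 intervals. Without the interval with most tRNA genes these were 0.90 and 0.81. Short loci of any level gave a rho of 0.66, and long loci gave -0.44. The genes that bound the intervals and the level of 10 FPKM were chosen after values were seen, so these correlations are descriptions only. The intervals share chromosome and annotation and range from 33.6 to 283 kb in length, with a rho between length and tRNA genes of 0.30. Whether a given short locus holds a tRNA gene was not checked. Copies of a tRNA gene can be near-identical, so reads of a locus that holds one may have been assigned to any of several copies. The level of such a locus is uncertain to that extent.

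The stretch from HNRNPA1P1, a pseudogene, to the histone H2B gene HIST1H2BL had the highest count of both, 26 tRNA genes and 21 short loci. Of these short loci, 18 were called higher in CPE and 9 were abundant. From RPSAP2 to TRIM27, which encodes a tripartite-motif E3 ligase, there were 18 tRNA genes and 8 short loci, 6 of them called higher in CPE. From HIST1H4H to the butyrophilin gene BTN3A2 there were 13 tRNA genes and 9 short loci, 6 of them called higher in CPE. The interval from ZNF322 to GUSBP2 did not follow the order, with 18 tRNA genes and 2 short loci. In the histone-rich intervals from HIST1H1A to HIST1H1E and on to HIST1H4H, with 5 and 12 tested histone loci, there were 0 tRNA genes and 2 short loci each, and 1 of these 4 was called higher in CPE. The 5 short loci from HIST1H2BL to HIST1H2BO, among 7 tested histone loci, were not called.

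**Figure D4:**
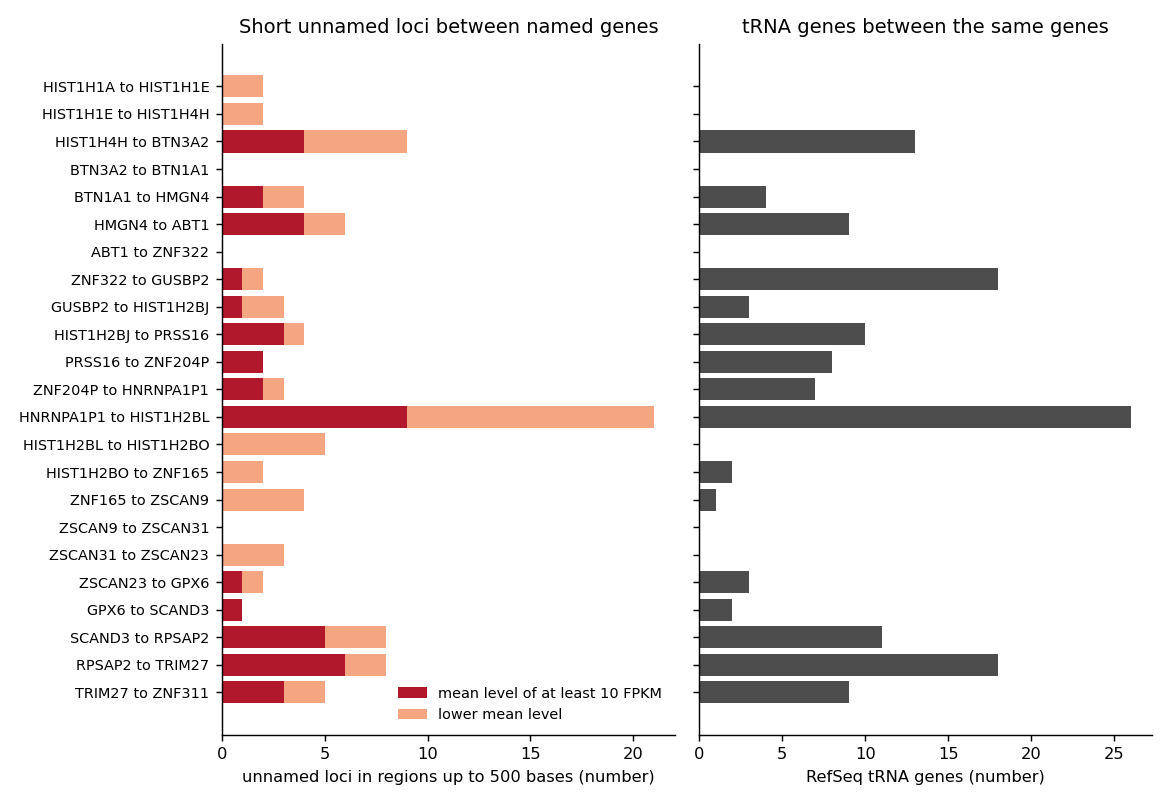
Number of short unnamed loci (left, dark for a mean level of at least 10 FPKM and light for lower levels) and of RefSeq tRNA genes (right) in 23 intervals between named genes, in chromosome order from top to bottom. Intervals with no tRNA gene hold no dark bar, and the interval from HNRNPA1P1 to HIST1H2BL has the longest bar on both sides.

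Across the 22 autosomes and X, chromosome 6 had the highest counts of both, with 54 abundant short unnamed loci and 155 RefSeq tRNA genes. Spearman's rho over these 23 chromosomes was 0.70, and 0.65 over the 22 without chromosome 6, while Pearson's r was 0.88 and 0.57. Short unnamed loci of any level gave a rho of 0.37 over the 23. Chromosome 1, with 98 tRNA genes, had 14 abundant short unnamed loci, and chromosome 2, with 8 tRNA genes, had 17. Outside the window, 88 of the 167 abundant short loci were called higher in SNE and 24 higher in CPE, so the chromosome counts pool both directions. The chromosomes differ in size and gene number, which both counts share.

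A tRNA symbol in the window allowed 1 direct view, chosen after its values were seen. TRNAI6, an isoleucine tRNA by its symbol, had 148 FPKM in CPE and 70.6 FPKM in SNE at chr6:27599188-27599791, and was not called: the authors' deposited table gives it a log2 ratio of 1.06 and a q of 0.418. The unnamed locus in the same region, CLOC_141610, had 29.9 FPKM in CPE and 11.7 FPKM in SNE and was called higher in CPE. The log2 ratio of TRNAI6 lies within the range of the abundant short loci, 0.02 to 3.52. That range also holds the median of short unnamed loci elsewhere, 2.81, so lying within it does not tell TRNAI6 apart from them. TRNAI2, in another region, was listed at 0 in both groups with low data.

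Among long loci, the highest levels lay in 1 region of 26.3 kb, chr6:27253682-27279949, which also holds POM121L2, a gene related to a nucleoporin. CLOC_141601 had 616 FPKM in CPE and 185 FPKM in SNE, and CLOC_148034 had 424 FPKM in CPE and 213 FPKM in SNE. Both were called higher in CPE, and the authors' deposited table gives log2 ratios of 1.74 and 0.99. CLOC_141602, in the same region, had 84.5 FPKM in CPE and 58.7 FPKM in SNE and was not called. CLOC_148123 at chr6:28827402-28832407 had 143 FPKM in CPE and 94.2 FPKM in SNE and was not called either (q = 0.493, authors' deposited table). The table gives the region of a group of neighbouring loci and not the extent of each, so a locus counted as long may itself be short.

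The largest called ratios of long loci above 0 in both groups came at low levels. CLOC_148072 (512 bases) had 1.19 FPKM in CPE and 0.0753 FPKM in SNE, a log2 ratio of 3.99 in the authors' deposited table. CLOC_148074 (844 bases) had 1.14 FPKM in CPE and 0.0791 FPKM in SNE. CLOC_141655 (4907 bases) had 1.02 FPKM in CPE and 0.0785 FPKM in SNE, and CLOC_148101 (603 bases) had 0.641 FPKM in CPE and 0.0536 FPKM in SNE. Each was near 1 FPKM or below in CPE and below 0.1 FPKM in SNE.

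Calls towards SNE came from regions that also held a gene with a symbol. The 11 members called higher in SNE all shared their region with a symbol locus, and of the 152 members in regions without one 95 (62.5%) were higher in CPE and 0 higher in SNE by the authors' deposited table. Shared regions held 150 members, with 31 (20.7%) called higher in CPE, 11 (7.33%) called higher in SNE and 108 without a call.

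Several of the members higher in SNE lay with histone genes. Most members in regions with histone genes were not called, among them all 7 in the region of HIST1H2BN and HIST1H2AK. CLOC_141516 had 50.5 FPKM in CPE and 195 FPKM in SNE, beside HIST1H4C, a histone H4 gene, with 264 FPKM in CPE and 1222 FPKM in SNE. CLOC_148025 had 9.95 FPKM in CPE and 35.8 FPKM in SNE, beside the histone H2B gene HIST1H2BJ with 314 FPKM in CPE and 1689.65 FPKM in SNE. Log2 ratios in the authors' deposited table were -1.95 and -2.21 in the first pair and -1.85 and -2.43 in the second. CLOC_147996 had 5.78 FPKM in CPE and 20.6 FPKM in SNE, and the locus HIST1H2AD,HIST1H3D in its region had 152 FPKM in CPE and 715 FPKM in SNE. CLOC_148028 lay with HIST1H2BK, and its log2 ratio was -1.78 beside -2.53 for that gene in the authors' deposited table. In these 4 regions the unnamed locus and the histone locus were called in the same direction, and the histone locus had the higher level. CLOC_141592 differed, with 48.1 FPKM in CPE and 222 FPKM in SNE, while the H2A gene HIST1H2AG of its region had 0.314 FPKM in CPE and 0.686 FPKM in SNE and was not called. Coding sequences of histone genes are close copies of each other, so the split of reads among them is uncertain.

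The other members higher in SNE lay with pseudogenes and other genes. CLOC_141665, in the region of the pseudogene COX11P1, had the smallest log2 ratio of all members, -2.53 in the authors' deposited table, with 2.45 FPKM in CPE and 14.1 FPKM in SNE. Its neighbour COX11P1 had 1.99 FPKM in CPE and 5.39 FPKM in SNE and was called in the same direction. The only short locus higher in SNE, CLOC_141569 at chr6:26527185-26527632, had 1.65 FPKM in CPE and 3.38 FPKM in SNE (q = 0.0103 in the authors' deposited table), and the symbol in its region, CTA-14H9.5, was not tested. The remaining 4 lay with HIST1H2AH, with HMGN4, which encodes a nucleosome-binding protein, with the noncoding RNA HCG11 and with the pseudogene TOB2P1. In each of the 11 regions the symbol locus of highest SNE level had a negative log2 ratio in the authors' deposited table, and in 5 of them a symbol locus was itself called higher in SNE. The same negative ratio stood beside 104 of the 108 members of shared regions without a call and 25 of the 31 higher in CPE. A symbol locus called higher in SNE stood beside 46 of the 108 and 9 of the 31, so both traits were common in shared regions.

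**Figure D5:**
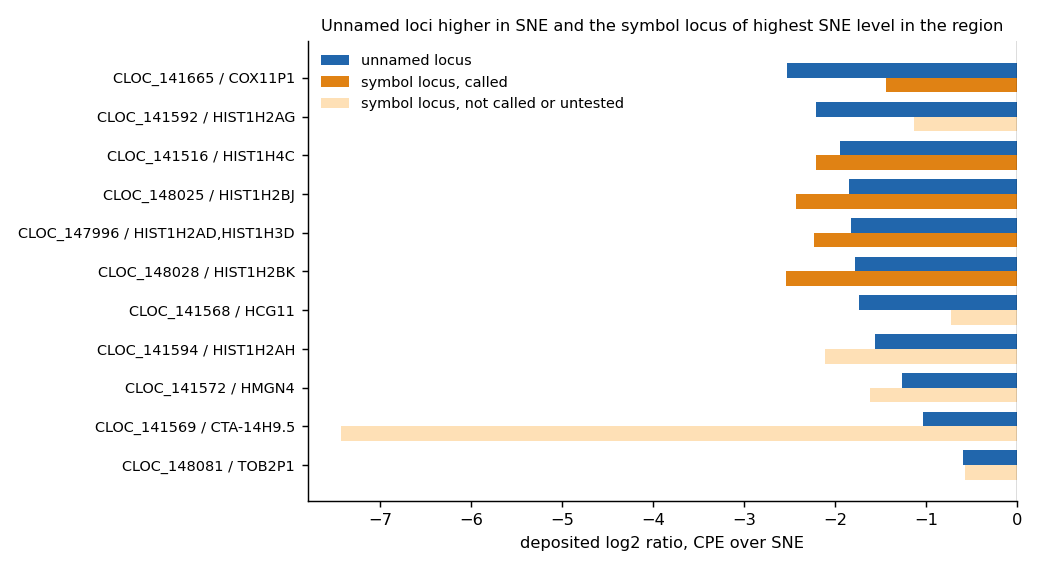
Deposited log2 ratio of CPE over SNE for the 11 members called higher in SNE (blue) and, in the same region, for the symbol locus with the highest SNE level (dark orange where called, light where not called or untested). All bars point to the SNE side. The symbol locus of highest SNE level also had a negative ratio beside 104 of the 108 members of shared regions without a call. The long bar of CTA-14H9.5 rests on levels of 0.000795 FPKM in CPE and 0.136 FPKM in SNE.

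Opposite directions within a region were also seen. Of the 31 members higher in CPE that share a region with a symbol locus, 9 had a symbol locus called higher in SNE beside them. Among the 108 members of shared regions without a call, 46 did. Of the 35 symbol loci beside the 31, some of them untested, 0 were called higher in CPE, against 1 of the 83 tested in the window. CLOC_141580 had 2.86 FPKM in CPE and 0.707 FPKM in SNE, beside ABT1, which encodes an activator of basal transcription, with 7.52 FPKM in CPE and 31.1 FPKM in SNE. Log2 ratios in the authors' deposited table were 2.02 for the unnamed locus and -2.05 for ABT1. Around the zinc finger gene ZNF184, 3 members had log2 ratios of 1.83 to 2.79 in the authors' deposited table, and the gene itself had -1.26, with 3.63 FPKM in CPE and 8.69 FPKM in SNE. For CLOC_148037 the log2 ratio in the authors' deposited table was 1.63, and for the pseudogene ZNF204P of its region it was -1.72. In CPE each of these members was less abundant than the symbol locus beside it.

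The identifiers of the members form 2 runs, the first of 167 loci. The file gives no strand, but symbol loci in the first run of their own numbering lie on the plus strand in GENCODE 29 in 77 cases and on the minus strand in 2, and those in the second run on the minus strand in 55 cases and on the plus strand in 0. If unnamed loci were numbered alike, 138 of the 150 members in shared regions would lie on the strand of a symbol locus there, including all 11 that were higher in SNE, and 12 only opposite one. Of those 12, 4 were higher in CPE and 0 higher in SNE. This reading of strand was not checked against coordinates.

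Most members of any 1 region lay among the butyrophilin genes. The region chr6:26365387-26476849, of 111 kb, held 32 members and 7 symbol loci, 6 of them butyrophilin genes or pseudogenes. Of these 32 members, 0 were called in either direction, and their log2 ratios in the authors' deposited table ran from -1.80 to 5.12 with a median of 2.26. Levels in this region were 0.447 to 8.75 FPKM in CPE and 0.0268 to 5.69 FPKM in SNE. The 6 butyrophilin loci were not called either, with a median log2 ratio of -0.42 in the authors' deposited table. In a region shared by many overlapping loci, reads are divided among them by estimate, and the part this plays in the absence of calls was not tested.

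The named genes of the window set the scale for the members. Of 29 tested HIST1 loci, 22 were called higher in SNE and 0 in CPE, and all 29 had negative log2 ratios in the authors' deposited table, with a median of -2.27. HIST1H1E, a linker histone gene, had the highest mean level, with 380 FPKM in CPE and 1832 FPKM in SNE, and HIST1H4D had 270 FPKM in CPE and 1137 FPKM in SNE. HIST1H4H had 215 FPKM in CPE and 1091 FPKM in SNE. Of 17 tested zinc finger and SCAN-domain loci, 7 (41.2%) were higher in SNE and 0 higher in CPE, a share near that of all symbol loci. Among tested loci, the abundant short loci and the histone loci thus lay on opposite sides of an equal ratio. The abundant short loci had medians of 41.8 FPKM in CPE and 17.9 FPKM in SNE, against 58.2 FPKM in CPE and 256 FPKM in SNE for the histone loci. The short loci were chosen by a minimum level and the histone loci were not, and FPKM of very short features rests on a setting that is not given.

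Of the 324 unnamed loci in the window, 22 were not tested and are not members, 18 of them for low data and 4 for too few reads. The most abundant of these, CLOC_141639, had 556 FPKM in CPE and 936 FPKM in SNE, so the tested loci do not hold all abundant unnamed RNA of the window. As to the label of the cells, the HEK293 markers PAX2, LHX1 and INA were below 1 FPKM in both groups, and NEFM and NEFL below 0.2 FPKM and untested. Of markers of other cell types, UMOD, NPHS1 and PTPRC were below 0.1 FPKM, ALB had 0.373 FPKM in CPE and was listed at 0 in SNE, and COL1A1 had 0.958 FPKM in CPE and 1.45 FPKM in SNE.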

How the data were processed

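RNA of CPE and SNE was sequenced from stranded total RNA libraries, per the labels' protocols. TopHat2 and Cuffdiff were used on hg19, per the submitters' processing notes; their versions, the annotation and the settings are not given in the sources used here. Per locus and group, the authors deposited 1 FPKM value, a log2 ratio of CPE over SNE, a p-value and a q-value from Cuffdiff, per the file headers. That ratio matched the 2 FPKM values within 0.01 at all 296 members above 0 in both groups. A call was a tested locus with the authors' q of at most 0.05, which matched the table's own mark with 0 differences. Starts are counted from 1. Counts, medians and correlations across intervals were computed in Python 3.11.15 with pandas 2.3.3, and the counting was tested on simulated data. The mean level used for abundance is that of both FPKM values. No test was run beyond the authors' own.

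Named members are, of each length class, the 6 with the highest FPKM in either group and the called ones with the 5 largest and 5 smallest ratios; others were named after their values were seen, as were the 24 genes that bound the intervals and the level of 10 FPKM. The members and lists were chosen with earlier results of these data known. A deposited isoform table was not used, since 12307 of 14208 pairs of values that occur once in each table stood under another gene identifier. PECAM1 and 1 marker of HEK293 cells are not reported here.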

Additional observations from a re-analysis of the deposited data

How the results depend on the processing

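No paired analysis was possible because the table holds 1 value per group, and for the same reason no replicate could be left out. The FPKM of loci near 1 is where depth limits most, and depth is unknown. Members higher in SNE numbered 11, and 0 in regions without a symbol locus. The short class had 64 higher in CPE, and 36 with a class limit of 300 bases, which makes the class itself smaller. Its 1 locus higher in SNE became 0 at a q of at most 0.01, after centring on symbol loci, in regions without a symbol locus and with a limit of 300 bases, and 2 with a limit of 1000 bases. After centring, the log2 ratio of that locus, CLOC_141569, was 0.30. The long class had 62 of 204 (30.4%) higher in CPE. The count was 37 with a minimum of 1 FPKM in either group and 41 with a limit of 1000 bases, both of which make the class smaller. In regions without a symbol locus it was 32 of 57, a higher share (56.1%). The 10 long loci higher in SNE became 0 in regions without a symbol locus. The median log2 ratio of members, 1.74, was 1.53 with 0.1 added to each FPKM, 0.76 with 1 added, 1.13 over members of at least 1 FPKM in both groups, 3.08 after centring on the symbol loci's median of -1.33, 1.58 in regions without a symbol locus, 1.63 with 1 value per region and 1.67 without the butyrophilin region, an alternative chosen after seeing the data. The other 38 recomputed values stayed within 1.5 times of the reported count, or, for the median with regions overlapping the window, came to 1.75. Of 24 named members with a ratio, 6 calls were lost at a q of at most 0.01.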
